A study of Mus musculus with 10 samples.

Results

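A list of 10 genes of melanin synthesis and of the retinal pigment epithelium was followed on whole-transcript arrays of embryonic mouse lenses at E13.5. They are Pmel, Tyr, Tyrp1, Dct, Mlana, Slc45a2, Mitf, Oca2, Rpe65 and Gpr143, all 10 were present on the table, and they are 10 of the 19938 genes measured. Members were chosen by gene symbol, and for Mitf, which had 2 probe sets, the one with the higher mean over the 10 arrays was used. DicerCN embryos had the genotype Le-Cre+/- ;DicerloxP/loxP and gave 5 arrays. Control embryos had the genotype Le-Cre-/- ;DicerloxP/loxP and gave 5 arrays. The labels also call these controls wild type, although they too carried the loxP-flanked alleles of Dicer, the ribonuclease that makes mature microRNAs. Each array held RNA of the lens pair of 1 embryo. In Le-Cre mice Cre recombinase is under the Pax6 P0 promoter and acts in surface ectoderm, the source of lens and corneal epithelium, and since no control carried Cre, the presence of Cre and the loss of Dicer cannot be told apart. The strain and coat colour of the embryos are not given in the labels.

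Melanin is made in melanosomes, organelles of neural crest-derived melanocytes and of the retinal pigment epithelium, a sheet that grows from the outer wall of the optic cup and not from the surface ectoderm. Pmel protein forms the fibrils on which melanin is laid down, Tyr, Tyrp1 and Dct oxidise and rearrange tyrosine products on those fibrils, and Slc45a2 and Oca2 are transport proteins that set the melanosome's interior. The transcription factor Mitf switches on many of these genes through E-boxes such as CATGTG in their promoters. The lens makes no melanin, but it lies inside the optic cup from which it is dissected. In an intact lens sample, fewer cells of a type and less RNA per cell cannot be told apart.

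The promoters of the tyrosinase family are shown because these genes moved together across arrays and hold the E-box that Mitf is known to bind. That of Oca2 is shown because its mean difference had the other sign, although its deviations from the group means ran with those of the tyrosinase family. RefSeq promoter windows (GRCm38.p6) were at hand for 6 of the 10 members, Tyr, Tyrp1, Dct, Mitf, Oca2 and Rpe65, with 8 windows in all. The sequences give the 250 bases before the annotated start, 5′ to 3′ on the gene's strand. Capitals mark CATGTG on either strand (written CACATG where it lies on the other strand, and the 2 forms can overlap) and, in the tyrosinase family, the 10-base run GTCATGTGCT that holds it.
Tyr, chr7:87493513-87493762, minus strand: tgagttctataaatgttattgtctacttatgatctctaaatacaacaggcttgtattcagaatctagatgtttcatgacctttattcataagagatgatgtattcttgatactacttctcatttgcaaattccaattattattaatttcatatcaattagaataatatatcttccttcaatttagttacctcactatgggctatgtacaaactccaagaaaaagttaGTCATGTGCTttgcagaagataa
Tyrp1, chr4:80833963-80834212, plus strand: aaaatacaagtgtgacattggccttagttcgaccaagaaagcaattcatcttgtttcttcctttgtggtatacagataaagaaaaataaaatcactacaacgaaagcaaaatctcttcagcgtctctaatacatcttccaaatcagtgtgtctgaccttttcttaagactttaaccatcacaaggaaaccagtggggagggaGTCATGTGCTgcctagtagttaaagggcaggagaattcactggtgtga
Dct, chr14:118052247-118052496, minus strand: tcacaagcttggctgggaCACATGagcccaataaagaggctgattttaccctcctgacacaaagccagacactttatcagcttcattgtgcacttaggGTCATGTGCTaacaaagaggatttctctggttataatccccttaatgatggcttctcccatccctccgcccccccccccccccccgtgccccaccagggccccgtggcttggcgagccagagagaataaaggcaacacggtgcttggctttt
Oca2, chr7:56239509-56239758, plus strand: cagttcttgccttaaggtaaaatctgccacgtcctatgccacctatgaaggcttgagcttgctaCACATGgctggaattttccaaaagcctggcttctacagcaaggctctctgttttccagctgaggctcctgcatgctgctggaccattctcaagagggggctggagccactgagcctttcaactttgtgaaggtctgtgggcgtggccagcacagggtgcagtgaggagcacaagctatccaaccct
The run GTCATGTGCT, the longest shared by the Tyr, Tyrp1 and Dct windows, began at base -23 of Tyr, -48 of Tyrp1 and -152 of Dct, counted back from the base before the start as -1. It was found in 0.155% of 32851 mouse promoter windows of the same 250 bases, on either strand, and it was picked after these windows had been compared. CATGTG on either strand stood in the windows of 5 of the 6 members, all but Mitf, against 12.3% of all windows. CACGTG, the other classical E-box, which is its own reverse complement and shares no overlap with CATGTG in these windows, stood in 0 of the 6, against 6.02% of all windows. Both counts are of genes, which can have more than 1 window, while the percentages are of single windows. Many of these genes are known Mitf targets through such E-boxes, so the matches are not independent of how the list was chosen. These matches describe letters and are no evidence of binding.

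In DicerCN lenses the melanosome fibril gene and the 3 tyrosinase family genes had higher signals than controls in some embryos and not in others, and 0 of 10 members passed the limma test at an adjusted p under 0.05, against 6.54% of all genes (2.56% higher and 3.97% lower in DicerCN). Pmel (probe set 10367379) had log2 signals of 8.83, 7.13, 7.37, 9.73 and 9.12 in DicerCN replicates 1 to 5 and of 7.33, 7.16, 6.64, 7.12 and 6.57 in control replicates 1 to 5. Replicates 1, 4 and 5 of the DicerCN group were far above every control, replicate 3 was just above the highest control and replicate 2 lay within the control range, so the groups overlapped. The means were 8.43 ± 1.14 in DicerCN and 6.96 ± 0.34 in control lenses (SD, n = 5 each). The difference was 1.47 on the log2 scale (2.77-fold, SE 0.43, limma adjusted p = 0.0609, exact permutation p = 0.0238), with a 95% confidence interval of 0.55 to 2.39. The limma adjusted p was under the threshold of 0.05 without DicerCN replicate 2 (0.0175) or replicate 3 (0.0311), the arrays nearest to controls. Other single omissions took it as high as 0.14.

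Tyr (10565422), the rate-limiting oxidase of melanin synthesis, had log2 signals of 5.91, 4.73, 4.60, 7.38 and 6.18 in DicerCN and of 4.90, 4.69, 4.83, 4.75 and 4.82 in control replicates 1 to 5. The control arrays lay close together and the DicerCN arrays far apart, with replicates 1, 4 and 5 above all controls and replicate 3 below all of them. The difference was 0.96 (SE 0.41, limma adjusted p = 0.225, exact permutation p = 0.159), and without DicerCN replicate 4 it was 0.56. Tyrp1 (10505614), an oxidase of melanin intermediates in the mouse, had log2 signals of 7.62, 5.74, 6.38, 7.70 and 7.61 in DicerCN and of 6.47, 5.97, 5.85, 5.81 and 5.50 in control replicates 1 to 5. Its replicates 1, 4 and 5 of the DicerCN group again stood above all controls, close to one another, and the other two lay in the control range. The difference was 1.09 (2.13-fold, SE 0.35, limma adjusted p = 0.0904, exact permutation p = 0.0714, and limma adjusted p = 0.0114 without DicerCN replicate 2). Other single omissions took the limma adjusted p of Tyrp1 as high as 0.2.

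Dct (10422249), dopachrome tautomerase, had the widest spread of the 10 genes, with log2 signals of 7.43, 5.98, 6.34, 9.10 and 8.03 in DicerCN and of 6.07, 5.98, 6.17, 6.45 and 5.38 in control replicates 1 to 5. Replicates 1, 4 and 5 were above every control by a wide margin, and replicates 2 and 3 fell among the controls. The difference was 1.37 (2.58-fold, SE 0.48, limma adjusted p = 0.123, exact permutation p = 0.0714), with limma adjusted p = 0.0397 without DicerCN replicate 2. Other single omissions took the limma adjusted p of Dct as high as 0.26. Without DicerCN replicate 4, the array highest in Pmel, Tyr, Tyrp1 and Dct, the differences of Pmel, Tyrp1 and Dct were 1.15, 0.92 and 0.93.

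**Figure D1:**
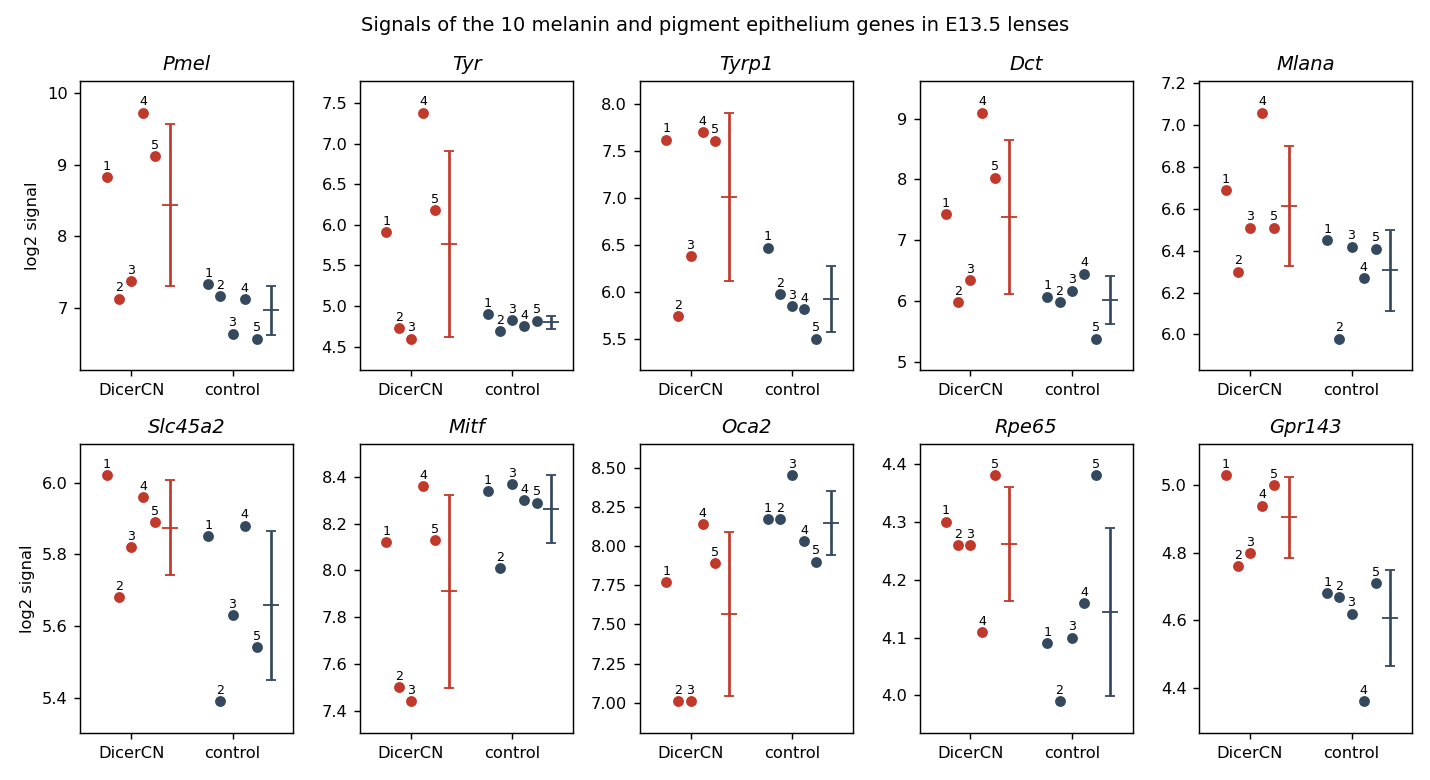
Log2 signal (y axis, its own scale in each panel) of each of the 10 genes in DicerCN and control lenses; each point is 1 array, numbered by replicate, and the bar beside each group is the mean ± SD (n = 5). In Pmel, Tyr, Tyrp1 and Dct the points of DicerCN replicates 1, 4 and 5 lie above all control points, and in Mitf and Oca2 the points of DicerCN replicates 2 and 3 lie below them. In Oca2 the points of DicerCN replicates 1 and 5 also lie below all control points, replicate 5 only narrowly.

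The remaining melanosome genes of the list differed by smaller amounts. Mlana (10462435), a melanosomal membrane protein that works with Pmel, had log2 signals of 6.69, 6.30, 6.51, 7.06 and 6.51 in DicerCN and of 6.45, 5.98, 6.42, 6.27 and 6.41 in control replicates 1 to 5. All but DicerCN replicate 2 exceeded every control, replicates 3 and 5 only narrowly, and replicate 4 was again highest (difference 0.31, SE 0.14, limma adjusted p = 0.244, and 0.20 for the difference without replicate 4). Slc45a2 (10423098) had log2 signals of 6.02, 5.68, 5.82, 5.96 and 5.89 in DicerCN and of 5.85, 5.39, 5.63, 5.88 and 5.54 in control replicates 1 to 5. The groups overlapped and the DicerCN arrays were the tighter of the pair (difference 0.21, SE 0.11, 95% confidence interval −0.01 to 0.44, limma adjusted p = 0.304).

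Gpr143 (10602677), a melanosomal receptor that is mutated in ocular albinism in humans, was the one member whose groups did not overlap. Its log2 signals were 5.03, 4.76, 4.80, 4.94 and 5.0 in DicerCN and 4.68, 4.67, 4.62, 4.36 and 4.71 in control replicates 1 to 5. The lowest DicerCN array exceeded the highest control by a narrow margin (4.76 against 4.71). The difference was 0.30 (SE 0.09, limma adjusted p = 0.0667, exact permutation p = 0.00794, the smallest that 252 ways of parting the arrays can give), and it stayed above the threshold in each of the 16 alternative settings in which the gene was tested. Groups stood apart in 1 of 10 members, against 7.38% of all genes (2.96% with DicerCN higher), which is no result about the list.

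Rpe65 (10497135), the isomerase of the visual cycle, had low signals in both groups. It had log2 signals of 4.30, 4.26, 4.26, 4.11 and 4.38 in DicerCN and of 4.09, 3.99, 4.10, 4.16 and 4.38 in control replicates 1 to 5. DicerCN replicate 4, highest in 7 of the 10 members within its group, was lowest in Rpe65. The difference was 0.12 (SE 0.09, 95% confidence interval −0.07 to 0.30, limma adjusted p = 0.534). As a mark of low signal, 95% of 1027 olfactory receptor genes had a mean log2 signal under 5.73. The means of Rpe65 and Gpr143 in both groups, and those of Tyr (4.80) and Slc45a2 (5.66) in controls, lay under this mark, so a transcript level cannot be read from them.

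Mitf and Oca2 stood the other way, lower in DicerCN lenses on average, again through particular embryos. Mitf (10540248) had log2 signals of 8.12, 7.5, 7.44, 8.36 and 8.13 in DicerCN and of 8.34, 8.01, 8.37, 8.30 and 8.29 in control replicates 1 to 5. DicerCN replicates 2 and 3 were below all controls and the other 3 lay within the control range (difference −0.35, SE 0.17, 95% confidence interval −0.71 to 0.01, limma adjusted p = 0.286). It was −0.23 without DicerCN replicate 3 and −0.20 over the mean of both probe sets. The second Mitf probe set had signals of 3.31 to 4.16 in DicerCN and of 3.28 to 3.87 in control lenses, a low signal from which nothing was read. Oca2 (10553743) had log2 signals of 7.77, 7.01, 7.01, 8.14 and 7.89 in DicerCN and of 8.17, 8.17, 8.45, 8.03 and 7.90 in control replicates 1 to 5. Here 4 of 5 DicerCN arrays were below every control, replicate 5 only narrowly, and replicate 4 lay inside the control range. The difference was −0.58 (SE 0.21, limma adjusted p = 0.134, exact permutation p = 0.0317), with a 95% confidence interval of −1.03 to −0.13.

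The embryos low in Mitf and Oca2 were thus the ones whose Pmel, Tyrp1 and Dct signals resembled controls, and the embryos high in Pmel, Tyrp1 and Dct had Mitf and Oca2 signals at or near control level. Every array was taken as a deviation from its group mean, and both groups were pooled. Mitf and Pmel then had a Pearson r of 0.863, Oca2 and Pmel of 0.888, and Mitf and Oca2 of 0.89 over the 10 arrays. In each of these genes the DicerCN arrays spread more widely than the controls and so weigh most in r. No r was computed among controls alone. These r are descriptions, since the arrays share their normalization and replicates of 1 group share its mean.

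**Figure D2:**
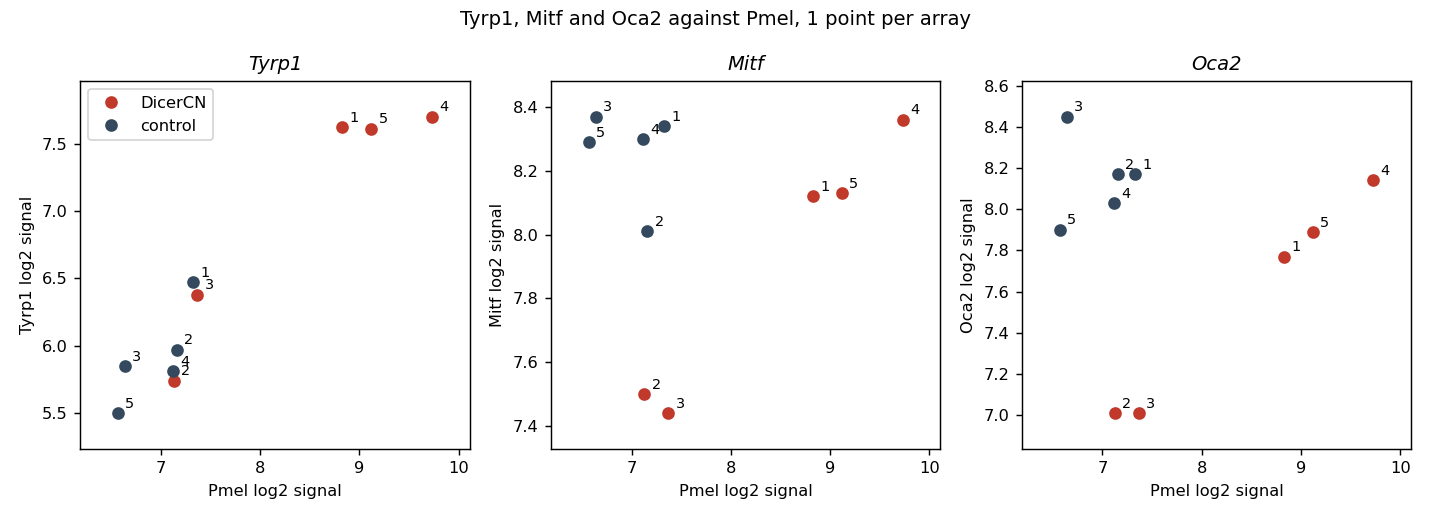
Log2 signal of Tyrp1, Mitf and Oca2 (y axes) against that of Pmel (x axis); each point is 1 array, numbered by replicate, with DicerCN in red and control in dark blue. DicerCN replicates 2 and 3 lie in the controls' Tyrp1 range and in or just above their Pmel range, but below all controls in Mitf (7.5 and 7.44) and Oca2 (7.01 each).

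Across the list, 8 of 10 members had a positive and 2 a negative difference, with a median of 0.30 against −0.0014 over all genes. In limma 7 of 10 had an unadjusted p under 0.05, against 18.6% of all genes. These 7 include Oca2, which was lower, and are measured in the same embryos, so they are not independent. By exact permutation 3 of 10 had a p under 0.05, and the share over all genes was not computed for that test. The spread within the DicerCN group was the plainer feature. Dct, Tyr, Pmel and Tyrp1 had SDs of 1.27, 1.15, 1.14 and 0.90 there, which took ranks 22, 34, 36 and 88 among 19938 genes from the largest SD down, where the median gene had 0.165. Among control arrays the SDs of Dct, Pmel and Tyrp1 were 0.39, 0.34 and 0.35 (ranks 531, 798 and 706). The control SD of Tyr was 0.08, at signals under the low-signal mark, where a small spread cannot be read. Mitf and Oca2 had SDs of 0.41 and 0.52 in DicerCN lenses, against 0.15 and 0.20 in controls. DicerCN replicate 1 was above every control in 7 of the 10 members and below every control in 1, against 22.2% and 23.8% of all genes. Replicate 4 was above in 7 and below in 0, against 19.9% and 24.3% of all genes. Replicate 5 was above in 8 and below in 1, against 24.3% and 25.4%. Those 3 arrays thus held most of the values above every control. Some margins were narrow, as for Slc45a2 in replicate 5 (5.89 against 5.88), and the counts include Rpe65 and Gpr143, under the low-signal mark. Replicate 2 was above in 1 and below in 2, against 22.0% and 23.4% of all genes, and replicate 3 was above in 3 and below in 3, against 24.9% and 26.3%.

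**Figure D3:**
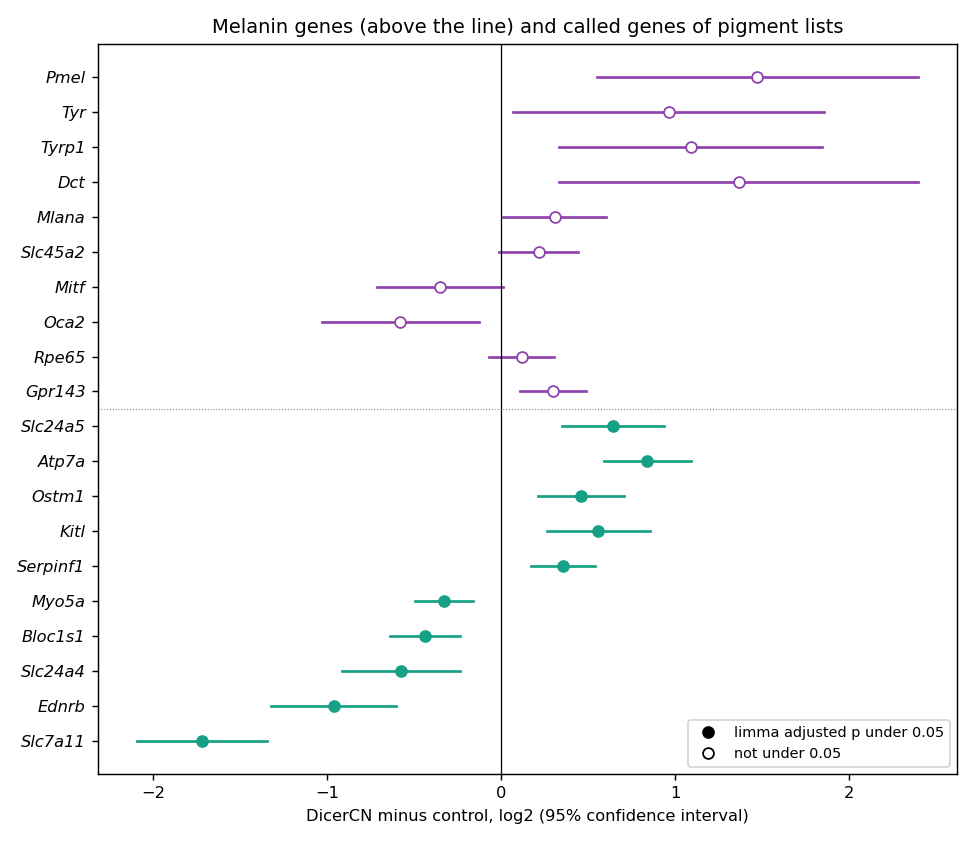
DicerCN minus control difference on the log2 scale (x axis) with its 95% confidence interval from limma for the 10 melanin genes, above the dotted line, and for the 10 genes of the other pigment lists that passed the test, below it. Filled points have an adjusted p under 0.05; all melanin genes are open points, with Pmel (1.47) and Dct (1.37) farthest to the right and widest.

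Deviations from the group means, pooled over both groups, ran together in the tyrosinase family and Pmel, with r of 0.803 to 0.941 over their 6 pairs. With Mitf and Oca2 added, all 15 pairs lay in that same range. These r rest mostly on the DicerCN arrays, where the tyrosinase family and Pmel had SDs of 0.90 to 1.27, against 0.08 to 0.39 in controls. They do not show that the genes ran together among controls. Over all 45 pairs of members the median was 0.591, and the 9 pairs with Rpe65, a gene at low signal, ran from −0.351 to 0.14. Among all genes outside the list, the 8 with deviations most like those of the members' mean were Rab27a (r = 0.98), Rad18 (0.962), Gpnmb (0.953), Ranbp17 (0.936), Gstt2 (0.934), Slc24a5 (0.927), Cd86 (0.926) and Krt18 (0.925), each over 10 arrays and picked from all other genes measured. Several of them are known from melanosomes: Rab27a is the small GTPase that ties melanosomes to myosin, Gpnmb is a melanosomal relative of Pmel and Slc24a5 is a cation exchanger of the melanosome pathway. Krt18 is a keratin of simple epithelia.

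Rab27a had log2 signals of 6.94, 5.88, 6.0, 7.18 and 6.94 in DicerCN and of 5.87, 5.80, 5.87, 5.86 and 5.75 in control replicates 1 to 5. Its groups did not overlap, though replicate 2 cleared the controls only narrowly (difference 0.76, SE 0.22, limma adjusted p = 0.0651, and 0.0166 or 0.0289 without DicerCN replicate 2 or 3). Other single omissions took the limma adjusted p of Rab27a as high as 0.141. Gpnmb had 7.56, 6.07, 6.28, 8.09 and 7.07 in DicerCN and 6.23, 6.09, 5.98, 5.94 and 5.76 in control replicates 1 to 5 (difference 1.01, SE 0.31, limma adjusted p = 0.0803, and 0.0246 or 0.0474 without DicerCN replicate 2 or 3). For Gpnmb, other single omissions took the limma adjusted p as high as 0.173. Slc24a5 had 6.66, 6.40, 6.31, 7.12 and 6.82 in DicerCN and 6.14, 5.86, 5.99, 6.03 and 6.06 in control replicates 1 to 5. All DicerCN arrays were above all controls, replicates 1, 4 and 5 again the highest, and Slc24a5 rose by 0.64 (SE 0.14, limma adjusted p = 0.0141), a call that held without each single array (adjusted p up to 0.0419). Rad18, Ranbp17, Gstt2 and Cd86 had deviations like those of the members' mean and differences of 0.0017, −0.05, −0.08 and −0.12, none of which passed the test.

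**Figure D4:**
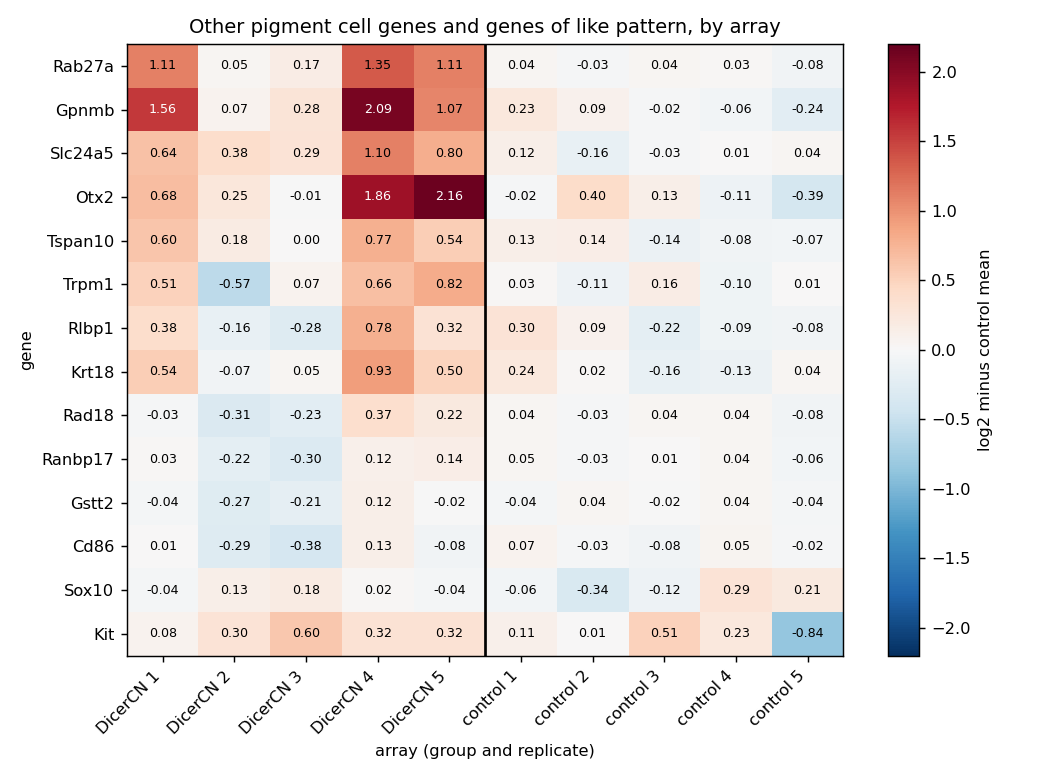
Log2 signal minus the control mean of the same gene (colour and printed value) for 14 genes outside the list (rows) in each array (columns), DicerCN to the left of the black line and control to the right. Rab27a, Gpnmb and Otx2 are high in DicerCN replicates 1, 4 and 5 (1.11, 1.35 and 1.11 for Rab27a), while Sox10 and Kit are not. Otx2, Tspan10, Trpm1, Rlbp1, Sox10 and Kit were chosen after their values were seen.

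Genes listed for the wider pigment pathway changed in both directions, and most did not pass the test. Most that passed did not follow the melanin genes from array to array. Among the called genes, the deviations of Slc24a5 (r = 0.927) and Ostm1 (0.641) ran with those of the melanin genes' mean. The r of the other called genes lay between −0.251 (Slc24a4) and 0.280 (Bloc1s1). Over 6 lists of other pigment genes with 80 measured members together, some on more than 1 list, 5 rose and 5 fell, 12.5% against the 6.54% of all genes, with a median difference of 0.02. Of 9 genes of ion and substrate transport 3 rose and 2 fell. Beside Slc24a5, Atp7a, the copper pump that loads tyrosinase, rose by 0.84 (SE 0.11, limma adjusted p = 0.00113), and Ostm1, a chloride transporter subunit whose mouse mutant is grey, rose by 0.46. Slc7a11, the cystine importer of the mouse subtle grey coat mutant, fell by 1.72 and Slc24a4, a cation exchanger, by 0.57. Over the 6 lists, the groups did not overlap in 9 of the 80 genes, against 7.38% of all genes. Atp7a and Slc7a11 were among these 9. Slc7a11 lay between 8.57 and 8.98 in DicerCN and between 9.91 and 10.98 in control lenses. Atp7a lay between 9.52 and 10.17 in DicerCN and between 8.81 and 9.19 in control lenses.

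Of 24 genes of melanosome biogenesis and sorting, 1 fell and 0 rose (median −0.11). That gene was Bloc1s1, a subunit of the BLOC-1 sorting complex, which fell by 0.44. Among 7 genes of melanosome transport, Myo5a, the motor that carries melanosomes along actin, fell by 0.33 and 0 rose. Among 17 relatives and regulators of Mitf, Kitl, the ligand of the melanoblast receptor Kit, rose by 0.56, and Ednrb, the endothelin receptor of melanoblasts that is also on the neural crest list, fell by 0.96 (SE 0.17, limma adjusted p = 0.00441). The calls of Ostm1, Slc24a4, Myo5a, Kitl and Serpinf1 each ended when any 1 of 4 to 8 single arrays was left out (adjusted p up to 0.123). Those of Slc24a5, Atp7a, Slc7a11, Bloc1s1 and Ednrb held without each single array.

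Among 19 retinoid cycle and pigment epithelium markers, Serpinf1, the gene of pigment epithelium-derived factor, rose by 0.35 (SE 0.08, limma adjusted p = 0.0251) and 0 fell. Its DicerCN values of 7.91, 7.70, 7.97, 7.84 and 7.63 in replicates 1 to 5 were highest in replicates 3 and 1, and controls lay between 7.35 and 7.55. Of the 19 genes 13 had a positive difference, with a median of 0.11, and their deviations had an r of −0.757 to 0.902 with those of the melanin genes' mean. The genes Otx2, Tspan10, Trpm1 and Rlbp1, named after their values were seen, were highest in DicerCN replicates 1, 4 and 5, in differing orders. Their r of 0.809 to 0.902 lay at the top of that range. Other markers of the list ran the other way, as did Ezr (−0.667) and Slc16a8 (−0.415) at signals above the low-signal mark. Of the 19 markers, 6 had a mean signal under that mark, so their r cannot be read. Rgr (−0.757), Ttr (−0.547) and Lrat (−0.318) are among these 6. The picked genes therefore do not stand for the list of 19. Otx2, a homeobox factor of the pigment epithelium and of retinal neurons, had 6.65, 6.22, 5.96, 7.83 and 8.13 in DicerCN and 5.95, 6.37, 6.10, 5.86 and 5.58 in control replicates 1 to 5 (difference 0.99, SE 0.37, limma adjusted p = 0.150). Tspan10, a tetraspanin, differed by 0.42, Trpm1, a channel of melanocytes and retina, by 0.30, and Rlbp1, the carrier of visual cycle retinoids, by 0.21, and none of these 3 passed the test.

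Markers of melanoblasts and neural crest did not share the pattern as a list. Their deviations had an r of −0.305 (Sox10) to 0.264 (Ets1) with those of the melanin genes' mean. Of 10 measured, 0 rose and 1 fell, Ednrb, with a median difference of 0.0041. The mean signals of 2 of the 10, Pax3 and Fabp7, lay under the low-signal mark. Which cells gave the melanin gene signals was not tested. Sox10, a crest factor that switches on Mitf, had log2 signals of 6.51 to 6.73 in DicerCN and of 6.21 to 6.84 in control lenses (difference 0.05, SE 0.11, limma adjusted p = 0.876). Kit had 7.39 to 7.91 in DicerCN and 6.47 to 7.82 in control lenses (difference 0.32, SE 0.20, limma adjusted p = 0.450). Both are named after their values were seen. The mean of these 10 markers over the control mean was between −0.19 and −0.01 in DicerCN and between −0.13 and 0.34 in control arrays.

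Signals of other eye tissues varied between the same arrays. The 10 melanin genes averaged 0.69, −0.17, −0.03, 1.17 and 0.79 above their control means in DicerCN replicates 1 to 5, and 0.15, −0.08, 0.03, 0.03 and −0.13 in control replicates 1 to 5. The 19 neural retina markers averaged −0.26, 0.42, 0.14, 0.71 and 1.94 in DicerCN replicates 1 to 5, and −0.04, 0.39, 0.16, −0.20 and −0.32 in control replicates 1 to 5. DicerCN replicate 5 was highest by far in retina markers and replicate 1, with high melanin genes, was lowest of its group. All 19 retina markers had a positive difference and 0 passed the test, with Gap43 of growing axons at 0.91 (SE 0.39) and Lhx2 of the optic cup at 0.91 (SE 0.40). The 12 macrophage markers averaged 0.84, 0.24, 0.98, 0.73 and 0.19 in DicerCN replicates 1 to 5 and −0.34 to 0.37 in controls, and 2 of them rose, Csf1r by 0.86 and Cx3cr1 by 0.73. DicerCN replicate 3, highest of its group in macrophage and periocular mesenchyme markers (0.98 and 1.12), had a melanin gene mean of −0.03, in which Mitf and Oca2 (−0.82 and −1.13) stood against Pmel and Tyrp1 (0.40 and 0.46). The part of these tissues in the melanin gene values was not tested.

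Control replicate 4 stood apart by its muscle markers, 3.07 above the control mean over 10 genes, against −0.95 to −0.57 in the other 4 controls and −0.94 to −0.60 in DicerCN lenses. Without it and DicerCN replicate 5 together, the differences of Pmel, Tyr, Tyrp1 and Dct were 1.34, 0.85, 0.91 and 1.31. The 16 lens markers had mean signals of 9.50 to 14.4, all above the low-signal mark, and 3 of them fell. Crygs, a crystallin of lens fibres, fell by 3.36 and Cryba2 fell by 0.76. Lens markers averaged −0.75 to −0.14 in DicerCN and −0.09 to 0.07 in control arrays. Of 11 mesenchyme markers 1 rose, Prrx2, by 0.56 (limma adjusted p = 0.0240, and as high as 0.0657 in the 5 single omissions that ended this call), and Lum stood at 1.08 (SE 0.42, limma adjusted p = 0.177, and 0.012 at a difference of 1.66 without control replicate 4 and DicerCN replicate 5). In 9 markers of surface ectoderm and cornea, 9 of vessels, 10 of muscle and 6 of red cells, 0 passed the test, with Epcam at 0.43 and Krt18 at 0.39, Tek at 0.45 and Cdh5 at 0.43, Tnnc2 at −0.72 and Myh3 at −1.32, and Alas2 at 0.62 and Slc4a1 at 0.69. Dicer1 had log2 signals of 10.19 to 10.45 in DicerCN and of 10.01 to 10.32 in control lenses, and with the flanked exons unknown from the labels, this is no check of the genotypes.

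**Figure D5:**
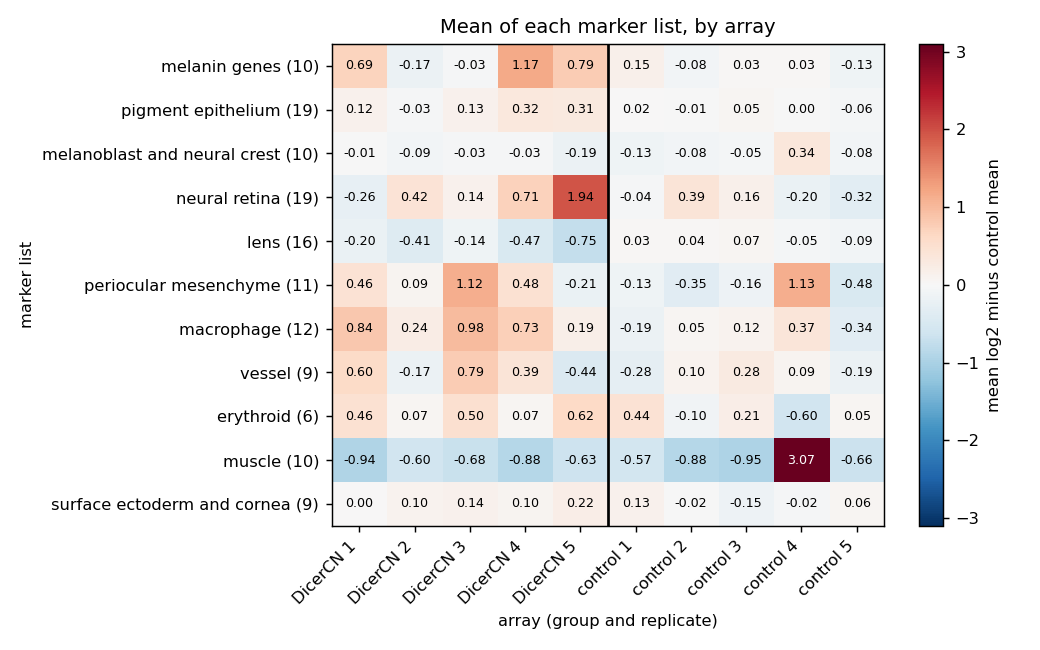
Mean over each marker list of the log2 signal minus the gene's control mean (colour and printed value), with the number of genes in brackets, in each array; DicerCN is left of the black line and control right of it. The melanin genes are high in DicerCN replicates 1, 4 and 5 (0.69, 1.17 and 0.79), the neural retina markers in replicate 5 (1.94), the periocular mesenchyme markers in DicerCN replicate 3 (1.12) and control replicate 4 (1.13), and the muscle markers in control replicate 4 (3.07).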

How the data were processed

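Total RNA of lens pairs was hybridised to Affymetrix whole-transcript arrays, 1 array per embryo, per the labels' protocols, and the submitters' processing notes name GCOS, the scanner software. The authors deposited 1 table of values taken here to be log2 signals, from their range of 1.91 to 15.2, with array medians of 6.54 to 6.56; their summary and scaling steps are not given in the sources used here. Arrays give no counts, so the number of arrays limits precision. Of 35557 probe sets, 21789 had 1 gene symbol in the platform annotation and were used, with the probe set of highest mean per gene; 1621 with several and 12147 with none were left out, including 15 that name Pmel beside other genes. Groups were compared with limma 3.58.1 (R 4.3.3; lmFit, eBayes, 2-sided, Benjamini-Hochberg over 19938 genes, adjusted p under 0.05), checked on simulated data, and single genes by exact 2-sided permutation. Differences are DicerCN minus control, and replicates are embryos. Members and lists were chosen with earlier results of these data known. Genes named are the members, Dicer1, every called gene of the pigment lists, the 2 genes of smallest p of each other marker list, and the 8 most like the members' mean. Otx2, Tspan10, Trpm1, Rlbp1, Sox10 and Kit were added after their values were seen. Alternatives were quantile normalization, leaving out the dimmest 25% of genes, the mean of probe sets, replicate block, array weights, an intensity trend, and leaving out arrays. Listed genes without a probe set of 1 symbol were not analysed here.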

Additional observations from a re-analysis of the deposited data

Results flagged for a closer look

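In 98 groups of 5 arrays examined, 5 held an array set apart from the other 4. The threshold for a single group lets about 1 in 20 through by chance, and groups that share an array are not independent. The Mitf signal of control replicate 2, 8.01, lay below the next control at 8.29. The Gpr143 signal of control replicate 4, 4.36, lay below the next at 4.62. The other 3 were all in control replicate 4, the array high in muscle markers, for Lum (6.23, next 5.05), Tnnc2 (9.20, next 6.42) and Myh3 (11.81, next 6.54).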

How the results depend on the processing

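The differences of all 10 members kept their direction under each alternative in which they were tested, and none of Tyr, Mlana, Slc45a2, Mitf, Oca2, Rpe65 and Gpr143 passed the threshold under any. Leaving out 1 array at a time gave differences of 1.15 to 1.80 for Pmel, 0.92 to 1.41 for Tyrp1, 0.93 to 1.71 for Dct, 0.56 to 1.25 for Tyr, 0.20 to 0.39 for Mlana, 0.15 to 0.27 for Slc45a2, −0.46 to −0.23 for Mitf, −0.72 to −0.44 for Oca2, 0.08 to 0.18 for Rpe65 and 0.24 to 0.33 for Gpr143. Pmel also passed with the replicate number as a block (1.47, limma adjusted p = 0.0467) and with array weights (1.51, 0.0377). The replicate block also gave calls to Lum (0.0467) and Alas2 (0.0288) and ended those of Ostm1 (0.0726), Myo5a (0.074) and Prrx2 (0.0682), and Lum passed without control replicate 4 and DicerCN replicate 5 (0.012). The replicate numbers were not taken to pair embryos, since the correlations of same-numbered deviations ran from −0.088 to 0.19 and 1 of 5 arrays correlated best with its own number. Leaving out 1 array at a time, genes that differed numbered 784 to 1295 (303 to 503 higher, 481 to 840 lower, against 1303, 511 and 792), and pigment list genes 2 to 9 higher and 3 to 6 lower, against 5 and 5. The 784 came without control replicate 1, and the 9 without DicerCN replicate 2. With control replicate 4 and DicerCN replicate 5 both left out, 2483 genes had groups that did not overlap, against 1472, as fewer arrays must separate, and 3 pigment list genes were lower. Of the other named genes, Rad18 (−0.09 to 0.08) changed sign without any 1 of 4 arrays (−0.01, −0.02, −0.05, −0.09) and without both of those named (−0.04), and Ranbp17 (−0.09 to 0.02) and Sox10 (−0.03 to 0.13) without 1 array each. Tspan10 passed without DicerCN replicate 3 (limma adjusted p = 0.0236), Trpm1 without DicerCN replicate 2 (0.0457), Epcam without DicerCN replicate 1 or 2 (0.030 to 0.049), without the dimmest genes (0.0491) and with array weights (0.0249), Tek without DicerCN replicate 5 (0.0495) and Alas2 without control replicate 1 (0.0446). Other single omissions took the limma adjusted p as high as 0.192 for Tspan10, 0.752 for Trpm1, 0.138 for Epcam, 0.214 for Tek and 0.231 for Alas2. With control replicate 4 and DicerCN replicate 5 out, the calls of Ostm1 (0.0842), Slc24a4 (0.074) and Myo5a (0.07) ended. Rab27a (0.0292) and Gpnmb (0.0478) passed with array weights. The cause of these changes was not tested.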
